A study of Zea mays with 6 samples.

Results

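A set of 10 maize genes that carry nitrogen from nitrate in the soil to glutamine was examined, out of 109715 gene identifiers in each of 3 expression tables. The 10 were taken by gene identifier for their known role and comprise 2 NRT2 nitrate transporters, 2 nitrate reductases, 1 nitrite reductase, 4 cytosolic glutamine synthetases and 1 plastid glutamine synthetase. Earlier results of these data were known when they were chosen. All 10 identifiers are present in the leaf, stem and root tables. The gene symbols used below are those of the RefSeq annotation, which holds 9 of the 10 identifiers. GRMZM2G428027 has no entry there and stands among the nitrate reductases by the selection rule alone.

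Plants take up nitrate through membrane transporters. The NRT2 family serves uptake at low nitrate and works together with small NAR2 partner proteins. Inside the cell, nitrate reductase turns nitrate into nitrite in the cytosol, and nitrite reductase turns nitrite, which is toxic, into ammonium in the plastid with electrons from ferredoxin. Glutamine synthetase (GS) then joins ammonium to glutamate. The plastid form, GS2, is the main form of green leaf cells in many plants, whereas the cytosolic forms are known from roots, vascular tissue and the recycling of nitrogen. Both nitrate reductase and nitrite reductase are textbook examples of genes that respond to nitrate, light and the carbon supply of the plant.

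The libraries came from the leaf, the stem and the root of wild type plants of the maize hybrid ZD619, labelled as 2-3 leaf stage, which were either well watered (leaf_control, stem_control and root_control) or drought-stressed by withholding water (leaf_drought, stem_drought and root_drought). All 6 groups share the hybrid, the greenhouse conditions and the stage label, and leaf means the uppermost leaves of the plant. The paper gives the labelled stage for the thinning of the pots, before water was withheld. It pictures plants of both treatments at a later leaf stage. The label is therefore not taken as the stage at sampling. RNA of several plants was combined, and each group has 1 library. There is therefore no replicate check, no error between replicates and no p-value for any difference reported here.

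Levels are in FPKM, fragments scaled to the length of the transcript and the mapped fragments of the library, so that levels of different genes can be set side by side. Read counts per gene were not analysed here, so the counting error of a value is unknown. Changes are given as the log2 ratio of drought to control after 0.1 FPKM was added to both values, which makes the change of a low gene look smaller. A fold stated beside the FPKM values of a gene is their plain ratio, with nothing added. The words rose and fell are kept for genes that changed more than 2-fold on this scale and whose control and drought values averaged 0.1 FPKM or more. Each tissue has its own table, taken as scaled separately, so levels in different tissues stand beside each other as a description only.

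The 6 libraries differed in their FPKM totals, from 544251 in root control to 908668 in root drought, and 9.55% of the latter came from GRMZM2G581850, which was listed at 0 in the other 5. The median log2 ratio of all genes above the filter was -0.01 in leaf, 0.06 in stem and 0.27 in root. Scaling every library to the same total would move the log2 ratio of a gene well above 0.1 FPKM by about 0.21 in leaf, by -0.08 in stem and by -0.74 in root. Root values are for this reason also given after the median was subtracted (centred) and after scaling to equal totals (rescaled). As a check of the labels, 18 green tissue genes summed to between 10170 and 26830 FPKM in the leaf and stem libraries and to 26.9 and 18.0 FPKM in the root libraries. The root list held only 2 genes with a reference symbol, with sums of 15.0 and 58.3 FPKM in root and at most 10.2 FPKM elsewhere. In a list of 9 shoot meristem genes, between 5 and 7 were listed at 0 in each leaf and stem library, so these markers do not tell stem from leaf. Their sums were highest in root, at 68.0 and 70.3 FPKM with 2 genes at 0 in each library. In leaf and stem the sums were between 35.7 and 57.6 FPKM, so this list does not mark the shoot libraries.

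Most transcripts of this pathway were lower in the drought library than in the control library in leaf and stem and higher in root. In leaf, 4 of the 7 members above the filter fell and 0 rose, where 14.4% of all genes fell and 15.1% rose. In stem, 4 of 8 fell and 0 rose, beside 15.2% of all genes that fell and 15.8% that rose. In root, 6 of 10 rose and 1 fell, beside 26.2% and 16.1% of all genes. Among genes averaging 10 FPKM or more, the leaf pair had 7.31% rises and 7.65% falls. The stem pair had 11.1% rises and 9.29% falls, and the root pair 28.5% rises and 6.58% falls. The member counts use the 0.1 FPKM filter and were not redone at this higher level, so they are not on the same footing. Neither the NRT2 genes nor GRMZM2G428027 reached it in any tissue, nor did gln3 in leaf, gln2 in leaf and stem or NNR1 in root. The median log2 ratio of the 10 genes was -0.85 in leaf, -0.72 in stem and 1.17 in root. This median includes members below the filter, unlike the medians of all genes and of the other nitrogen genes. The root median was 0.90 when centred and 0.52 when rescaled. Of the 6 rises in root, those of nrt2.2, NNR1, GRMZM2G428027 and gln3 stayed past 2-fold under both of these scalings. In bulk tissue, fewer cells of a type and less RNA per cell cannot be told apart.

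**Figure D1:**
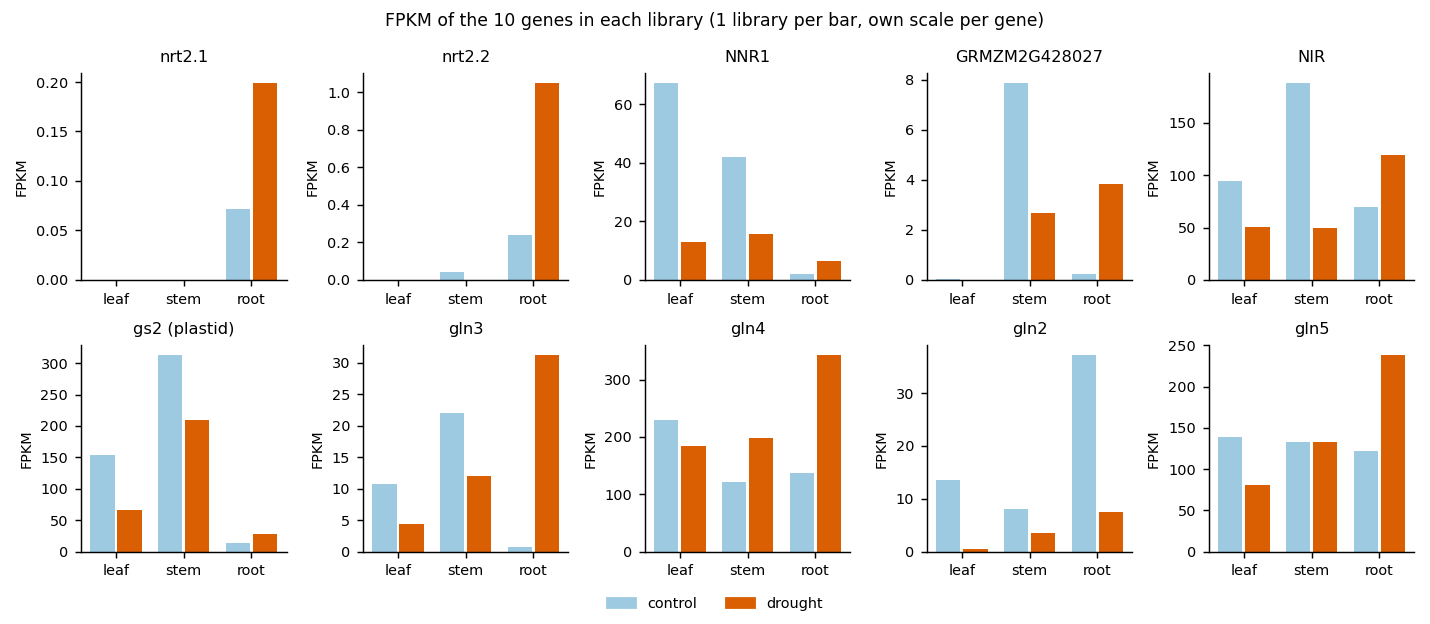
FPKM of each of the 10 genes (vertical axis, starting at 0 with its own scale for each gene) in control (blue) and drought (orange) libraries of leaf, stem and root, with 1 library per bar and no error bars. In root, 9 of the 10 orange bars are taller than the blue bar beside them, and the exception is gln2, at 37.3 FPKM in control and 7.47 FPKM in drought. Of all genes above the filter in root, 59.8% were higher in drought.

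The transporters nrt2.1 (GRMZM2G010280) and nrt2.2 (GRMZM2G010251) were root transcripts of low level. nrt2.1 was listed at 0 in both leaf and both stem libraries and reached 0.0720 FPKM in root control and 0.199 FPKM in root drought. nrt2.2 was at 0.239 FPKM in root control and 1.05 FPKM in root drought, at 0.0400 FPKM in stem control and at 0 in the other 3 libraries. Its log2 ratio in root was 1.76, or 1.49 centred and 1.22 rescaled, so nrt2.2 rose. With 1 FPKM added in place of 0.1 FPKM the ratio was 0.73, which is under 2-fold. The root ratio of nrt2.1 was 0.80. The reference lists the identifier GRMZM2G010280 under both of these neighbouring loci, so the authors' counting may have divided reads between them and the level of each alone is uncertain.

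NNR1 (GRMZM2G568636), a nitrate reductase, was a transcript of the shoot. Its level was 67.2 FPKM in leaf control and 13.1 FPKM in leaf drought. In stem it was 42.0 FPKM in control and 15.7 FPKM in drought. In root it was 1.86 FPKM in control and 6.38 FPKM in drought. The order of the libraries was thus leaf control, stem control, stem drought, leaf drought, root drought and root control, with every shoot library above every root library. Control was 5.13-fold above drought in leaf and 2.67-fold above it in stem, with log2 ratios of -2.35 and -1.41. In leaf, 4.29% of the genes above the filter had a lower ratio. In root NNR1 rose, with a log2 ratio of 1.72, or 1.45 centred and 1.01 rescaled, the last of which lies just past the 2-fold line.

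GRMZM2G428027 followed another distribution over the tissues. It was at 7.86 FPKM in stem control and 2.68 FPKM in stem drought. In leaf control it was at 0.0214 FPKM and in leaf drought at 0, below the filter. In root it was at 0.236 FPKM in control and 3.82 FPKM in drought, a 16.2-fold difference. It therefore fell in stem (log2 ratio -1.52) and rose in root (3.54, or 3.27 centred and 3.01 rescaled), where 98.0% of the genes above the filter had a lower ratio. With 1 FPKM added in place of 0.1 FPKM, the root ratio was 1.96. Of the summed FPKM of the 2 nitrate reductases, GRMZM2G428027 made up 15.8% in stem control and 14.6% in stem drought. In root its share was 11.2% in control and 37.4% in drought. A share within a library does not depend on how the library was scaled.

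Nitrite reductase, NIR (GRMZM2G079381), was high in every library. It was at 94.8 FPKM in leaf control and 50.3 FPKM in leaf drought. In stem it was at 188 FPKM in control, the highest of the 6, and at 49.4 FPKM in drought, the lowest beside leaf drought. In root it was at 69.9 FPKM in control and 119 FPKM in drought. NIR fell in stem alone, with control 3.81-fold above drought and a log2 ratio of -1.93, while the leaf ratio of -0.91 and the root ratio of 0.77 were under 2-fold. Rescaled, the root ratio of NIR was 0.03.

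The balance between the reductases can be read within each library. The summed nitrate reductases were at 0.710 of the NIR level in leaf control and at 0.260 in leaf drought, as NNR1 had the lower log2 ratio of the 2 steps. In stem the ratio was 0.265 in control and 0.373 in drought, a shift in the opposite direction, since NIR was the member with the lowest log2 ratio there. In root it was 0.0300 in control and 0.0853 in drought. NIR thus exceeded the nitrate reductases 33.3-fold in root control and 11.7-fold in root drought, compared with 1.41-fold in leaf control.

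**Figure D2:**
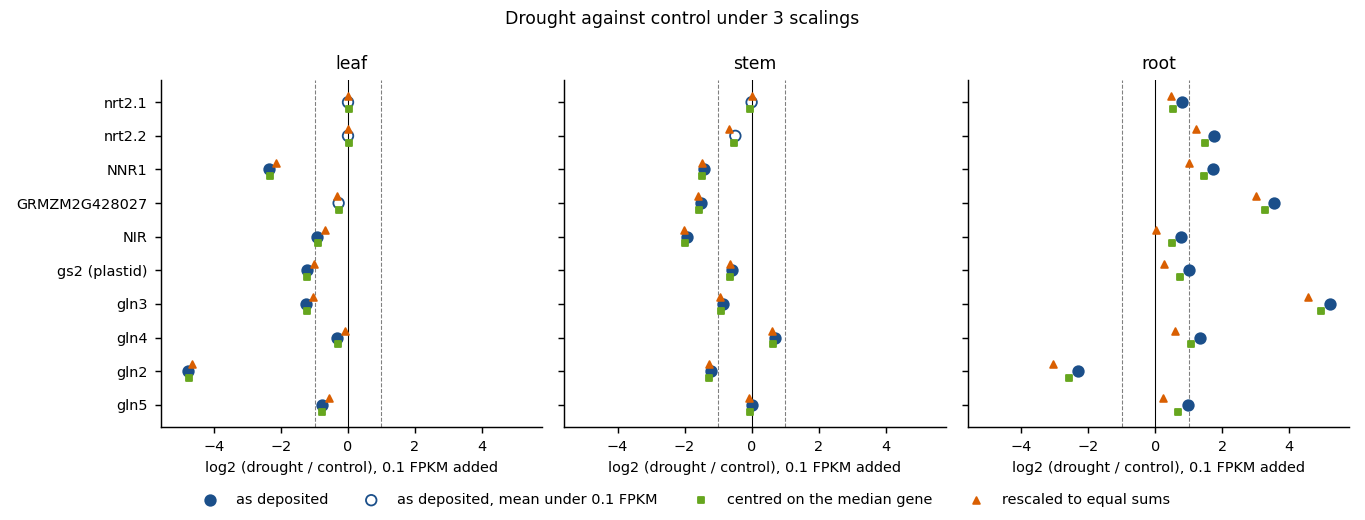
Log2 ratio of drought to control (horizontal axis, 0.1 FPKM added) for the 10 genes in leaf, stem and root, as deposited (circles, open where the mean is under 0.1 FPKM), centred on the median gene (squares) and rescaled to equal totals (triangles); dashed lines mark 2-fold. The scalings lie close together in leaf and stem, while in root the triangles lie to the left, with NIR at 0.77 as deposited and 0.03 rescaled.

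The plastid glutamine synthetase gs2 (GRMZM2G098290, symbol gln1 in the reference) had its highest level in stem, at 313 FPKM in control and 209.8 FPKM in drought. In leaf it was at 153 FPKM in control and 65.4 FPKM in drought, and in root at 14.1 FPKM in control and 28.5 FPKM in drought. Every leaf and stem library was above both root libraries. It fell in leaf (log2 ratio -1.23, or -1.01 rescaled) and had a ratio of -0.58 in stem. In root its ratio of 1.01 was just past 2-fold and did not stay there, at 0.74 centred and 0.28 rescaled. The summed green tissue genes moved with it in leaf, from 25993 FPKM in control to 10170 FPKM in drought, and 10 of these 18 genes fell and 1 rose. In stem they summed to 26830 and 24334 FPKM, with 1 fall and 1 rise. In root they went the other way from gs2, with sums of 26.9 FPKM in control and 18.0 FPKM in drought. There, 8 of the 14 above the filter fell and 1 rose. The part of this in the gs2 values was not tested. A second identifier, GRMZM5G885867, belongs to the same locus in the reference. It was between 2.93 and 8.96 FPKM over the 6 libraries and made up 22.6% of both identifiers in root control and 16.9% in root drought, so reads may have been divided there.

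Of the 4 cytosolic members, gln4 (GRMZM5G872068) and gln5 (GRMZM2G036464) had the highest levels in each library. gln4 was at 230.2 FPKM in leaf control and 185 FPKM in leaf drought. In stem it was at 121 FPKM in control and 197 FPKM in drought, and in root at 137 FPKM in control and 343 FPKM in drought. Its log2 ratios were -0.32, 0.70 and 1.33, so it rose in root, with 1.06 centred and 0.59 rescaled. gln5 was at 139 FPKM in leaf control and 80.8 FPKM in leaf drought. In stem it was at 133 FPKM in both libraries, and in root at 122 FPKM in control and 239 FPKM in drought. Its log2 ratio was -0.78 in leaf and 0.97 in root, and in stem 0.01 as deposited, -0.05 centred and -0.07 rescaled. gln5 did not pass 2-fold in any tissue.

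gln3 (GRMZM2G046601) gave the widest range of responses. It was at 0.746 FPKM in root control and 31.3 FPKM in root drought, its lowest and its highest library, a 41.9-fold difference. In leaf it was at 10.7 FPKM in control and 4.44 FPKM in drought, and in stem at 21.9 FPKM in control and 12.0 FPKM in drought. gln3 fell in leaf (log2 ratio -1.25) and rose in root (5.21, or 4.94 centred and 4.55 rescaled), and its stem ratio of -0.87 was under 2-fold. In root, 99.5% of the genes above the filter had a lower ratio.

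gln2 (GRMZM2G024104) went the other way in root. It was at 37.3 FPKM in root control, its highest library, and at 7.47 FPKM in root drought. In leaf it was at 13.5 FPKM in control and 0.397 FPKM in drought, a 34.1-fold difference, and in stem at 8.03 FPKM in control and 3.43 FPKM in drought. It was the member that fell in all 3 tissues, with log2 ratios of -4.78 in leaf, -1.20 in stem and -2.30 in root. Rescaled, these were -4.65, -1.29 and -3.04. In leaf, 0.585% of the genes above the filter had a lower ratio.

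The glutamine synthetase transcripts therefore changed in make-up. Counted over the 5 members and GLN6 (GRMZM2G050514), a further GS gene of the reference, gln4 made up 30.4% of the summed FPKM in leaf control and 44.0% in leaf drought. In stem its share was 19.9% in control and 35.2% in drought, and in root 42.9% and 50.1%. The share of gs2 was 20.3% in leaf control and 15.6% in leaf drought. In stem it was 51.3% and 37.5%, and in root 4.42% and 4.16%. gln2 went from 11.7% in root control to 1.09% in root drought, while gln3 went from 0.234% to 4.56%. The 4 cytosolic members together exceeded gs2 2.56-fold in leaf control and 4.13-fold in leaf drought. In stem the ratio was 0.907 in control and 1.65 in drought, and in root 21.1 and 21.8. With GLN6 counted among the cytosolic forms, the ratio was 3.93 and 5.42 in leaf, 0.951 and 1.67 in stem, and 21.6 and 23.1 in root. With the 4 members set against both gs2 identifiers, it was 2.47 and 3.63 in leaf, 0.899 and 1.62 in stem, and 16.3 and 18.1 in root.

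**Figure D3:**
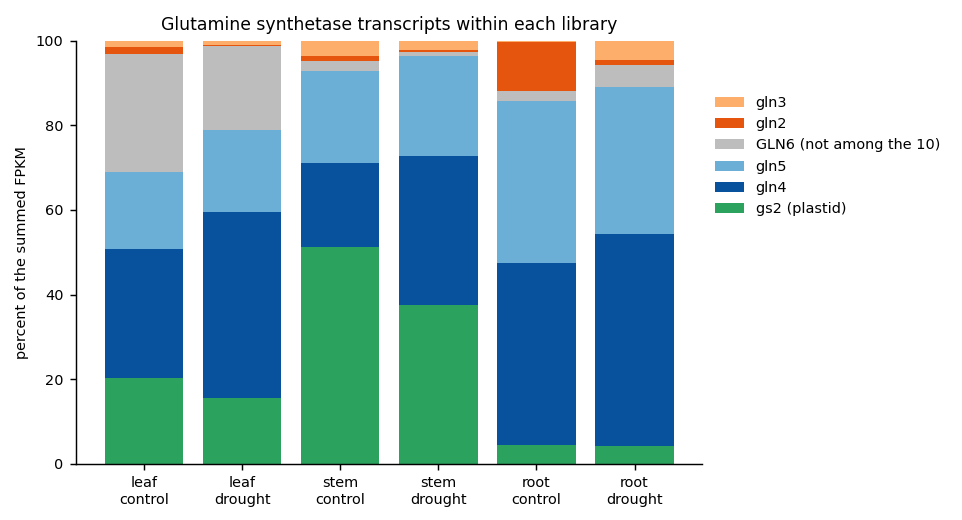
Percent of the summed FPKM of 6 glutamine synthetase genes (vertical axis) in each of the 6 libraries, with 1 library per bar; GLN6, in grey, is not among the 10 genes. The plastid gs2 has its largest share in stem control, at 51.3%, and gln4 has a larger share in the drought library of each tissue.

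The root ratio exceeded the leaf ratio in all 10 genes, by between 0.80 (nrt2.1, at 0 in leaf) and 6.46 (gln3). It exceeded the stem ratio in 9 of 10, the exception being gln2, by -1.10. When rescaled, gln4 was a further exception, at 0.59 in root and 0.62 in stem. Root ratios were higher in general: 59.8% of all genes above the filter had a ratio above 0 in root, 49.2% in leaf and 52.6% in stem. The share of all genes with a higher ratio in root than in leaf or stem was not computed, so these member counts have no background beside them. They include genes below the filter, which were nrt2.1, nrt2.2 and GRMZM2G428027 in leaf and nrt2.1 and nrt2.2 in stem. The members together held 0.0867% of the FPKM total in leaf control and 0.0567% in leaf drought. In stem this was 0.122% and 0.0862%, and in root 0.0704% and 0.0859%.

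The rest of the pathway was described from 10 lists of gene symbols, which gave 28 further identifiers in 7 lists. In leaf, 3 of the 23 above the filter rose and 3 fell, beside 15.1% and 14.4% of all genes. In stem, 2 of 25 rose and 9 fell, beside 15.8% and 15.2%. In root, 5 of 23 rose and 4 fell, beside 26.2% and 16.1%, so the leaf and root counts lay near those of all genes. The median log2 ratio of those above the filter was -0.40 in leaf and in stem and 0.48 in root, beside -0.01, 0.06 and 0.27 for all genes. Symbols exist for 17.1% of all identifiers, so these lists hold a part of each family.

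The NAR2 partners of the transporters differed from each other. NAR2.1 (GRMZM2G179294) was the root form, at 20.8 FPKM in root control and 31.0 FPKM in root drought, a log2 ratio of 0.57, or -0.16 rescaled. It rose in stem from 0.774 to 2.95 FPKM. NAR2.2 (GRMZM2G163494) was highest in stem and fell in every tissue. Its leaf level was 2.38 FPKM in control and 0.568 FPKM in drought, its stem level 19.7 and 3.09 FPKM, and its root level 0.510 and 0.170 FPKM. The root fall, a log2 ratio of -1.17, rests on values under 1 FPKM. In both root libraries NAR2.1 was thus far above nrt2.1 and nrt2.2, which reached at most 1.05 FPKM.

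Of the genes that carry electrons to nitrite reductase, fnr1 (GRMZM2G058760), a ferredoxin-NADP reductase, rose in root from 30.8 to 267 FPKM, with a log2 ratio of 3.11 or 2.37 rescaled, and fell in stem from 27.4 to 9.14 FPKM. FDX6 (GRMZM2G106190), a ferredoxin, fell in leaf from 32.1 to 9.61 FPKM and rose in root from 33.1 to 98.8 FPKM, where its log2 ratio was 1.57, or 0.84 rescaled. The ferredoxin fdx3 (GRMZM2G053458) rose in leaf from 48.8 to 118 FPKM and fell in stem from 162 to 58.1 FPKM. In root fdx3 was at 328 FPKM in control and 465 FPKM in drought, a log2 ratio of 0.50, or -0.23 rescaled.

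The further glutamine synthetase GLN6 fell in leaf from 209.9 to 84.3 FPKM and in stem from 13.6 to 4.22 FPKM, and rose in root from 7.69 to 35.8 FPKM, with log2 ratios of -1.32, -1.67 and 2.21. Glutamate dehydrogenase gdh1 (GRMZM2G178415), which can release ammonium from glutamate, rose in root from 6.61 to 65.3 FPKM, a log2 ratio of 3.28 or 2.56 rescaled. The ferredoxin-dependent glutamate synthase fgs1 (GRMZM2G036609), which uses the glutamine formed by GS, had log2 ratios of -0.08 in leaf, -0.85 in stem and 0.24 in root. The asparagine synthetase asn3 (GRMZM2G053669), which takes its nitrogen from glutamine, had log2 ratios of 9.57 in leaf, -1.70 in stem and -2.94 in root. Its control and drought levels were 0.145 and 186 FPKM in leaf, 0.873 and 0.200 FPKM in stem, and 25.1 and 3.18 FPKM in root. The leaf and stem ratios thus rest on values under 1 FPKM. asn2 (GRMZM2G093175) fell in stem from 3.77 to 0.661 FPKM, a log2 ratio of -2.35. Among the genes caught by the symbols of regulators, dof2 (GRMZM2G009406), a Dof transcription factor, rose in leaf from 1.68 to 4.75 FPKM and in stem from 2.51 to 6.70 FPKM. The same symbols caught Hb (GRMZM2G067402), a plant haemoglobin gene, which rose in root from 50.5 to 441 FPKM and fell in stem from 21.4 to 9.78 FPKM.

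**Figure D4:**
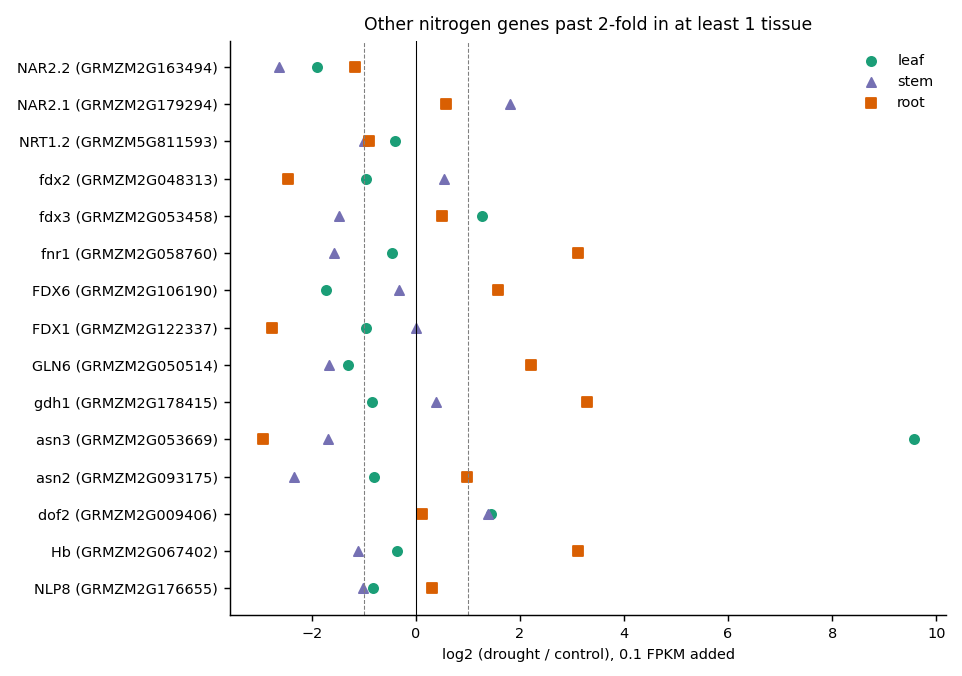
Log2 ratio of drought to control (horizontal axis, 0.1 FPKM added) in leaf (circles), stem (triangles) and root (squares) for the further nitrogen genes past 2-fold in at least 1 tissue; a symbol is left out where the mean was under 0.1 FPKM, and dashed lines mark 2-fold. GLN6 lies at -1.32 in leaf and at 2.21 in root, and NAR2.2 lies below -1 in all 3 tissues.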

How the data were processed

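Total RNA of leaf, stem and root was made into poly(A) libraries and sequenced on an Illumina instrument. The authors mapped the reads to the B73 maize genome with TopHat and processed them with Cufflinks and Cuffdiff; versions and the genome release are not given in the sources used here. The deposited tables hold FPKM by the authors for a control and a drought library of each tissue. Their column of log2 ratios, the authors' own comparison, was not used. The ratios were computed from the FPKM columns with 0.1 FPKM added, and genes whose pair of values averaged 0.1 FPKM or more entered the counts. With 1 library per group no test was run, and a change past 2-fold stands in for a call.

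The members and lists were chosen with earlier results of these data known. The genes named are the 10 members and, of the listed nitrogen genes, those past 2-fold in at least 2 tissues or with the 2 largest rises or falls of a tissue at 1 FPKM or more in the higher library. Listed genes outside this rule appear in counts and a plot only, except fgs1 and GRMZM5G885867, the second gs2 identifier, which were added after their values were seen. From the symbol lists, 4 identifiers of other kinds (globulins and a NAC gene) were left out. RefSeq entries of another assembly (NAM-5.0) gave symbols for 18778 identifiers, and its coordinates were not used. Comparisons of member proteins and promoters, and a list by protein similarity, had been planned and were not run. Alternatives were a pseudocount of 0.01 or 1 FPKM, no filter or 1 FPKM, a fold of 4, centring on the median gene and rescaling all libraries to the same total; rescaling without the highest gene was chosen after seeing the data. All steps ran in Python 3.11.15 (pandas 2.3.3, numpy 2.4.6, matplotlib 3.10.9). The log2 ratio, its centring and the 2-fold call were tested on simulated data, for genes at 1 FPKM or more in control. The other steps were not tested in this way.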

Additional observations from a re-analysis of the deposited data

Results flagged for a closer look

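Of the 10 genes, 4 rose past 2-fold in root and fell past 2-fold in leaf or stem, out of 8 above the filter in root and in leaf or stem. Of the 34682 genes above it in the same way, 7.33% did so. When rescaled, these were 3 members and 4.29% of genes. With 1 library in each group the differences between tissues were not tested. For NNR1 (GRMZM2G568636) the log2 ratio in root exceeded that in leaf by 4.07 and that in stem by 3.13. For GRMZM2G428027 the root ratio exceeded the stem ratio by 5.06. For the plastid synthetase gs2 (GRMZM2G098290) the root ratio exceeded the leaf ratio by 2.24, with a root rise that was under 2-fold when centred or rescaled. For gln3 (GRMZM2G046601) the root ratio exceeded the leaf ratio by 6.46, the largest of these differences.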

How the results depend on the processing

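With 1 library per group, no error between replicates can be given. Over 130 recomputed member ratios, 120 kept their side of the 2-fold line, 7 dropped under 2-fold and 3 passed it. The 120 include ratios of nrt2.1 and nrt2.2 with 0 FPKM in both libraries, which could not cross that line. The sign turned in 2, both of gln5 in stem (from 0.01 to -0.05 and -0.07). A ratio past 2-fold could not change sign here. An added FPKM value keeps the sign, and the scalings moved ratios by less than 2-fold. With 0.01 FPKM added, the median of the 10 genes was -1.07 in leaf and -1.05 in stem, and 5 other nitrogen genes fell in leaf. With 1 FPKM added, the root median was 0.96, 1 other nitrogen gene fell in root, and the share of all genes past 2-fold was 12.9% in leaf, 14.5% in stem and 23.7% in root, compared with 29.5%, 31.0% and 42.3%. The root median was 0.90 when centred, 0.52 when rescaled and 0.65 when rescaled without the highest gene. Of the root genes past 2-fold, 62.0% rose as deposited, 49.6% when centred, 31.3% when rescaled and 36.8% when rescaled without the highest gene. With a fold of 4, 2 members fell in leaf, 0 fell in stem and 2 rose in root; of the other nitrogen genes 1 rose and 0 fell in leaf, and 0 rose and 2 fell in stem; the shares of all genes were 12.5%, 10.6% and 16.7%. Without a filter, which counts all identifiers, these shares were 11.5%, 11.8% and 16.2%. With a mean of at least 1 FPKM, 1 other nitrogen gene fell in root. The list by protein similarity was not run. No paired analysis within a tissue was possible because each group has 1 library, and no fit paired over the 3 tissues was run.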

Other observations

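Among genes with a symbol and a mean of at least 1 FPKM in every tissue, the closest in response to each member of highest level were found by the distance over the 3 log2 ratios, as a description of 3 values per gene. Nearest to NNR1 was MYR1 (GRMZM2G117193), at a distance of 0.40, with log2 ratios of -2.02 in leaf, -1.24 in stem and 1.59 in root. Nearest to NIR was lox12 (GRMZM2G106748), at 0.42, with -0.72, -1.62 and 0.57. For gln4 it was ANT2 (GRMZM2G135186), at 0.10, with -0.31, 0.73 and 1.42. For gs2 it was adk1 (GRMZM2G178192), at 0.16, with -1.34, -0.49 and 0.95. For nrt2.2, whose ratios in leaf and stem rest on values at or near 0, it was AUX15 (GRMZM2G079200), at 0.07.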
